A study of Mus musculus with 8 samples.

Results

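The 9 genes described here, Odc1, Oaz1, Amd1, Amd2, Srm, Sms, Smox, Sat1 and Paox, encode the enzymes that make and degrade the polyamines in the mouse and the protein that controls the first of them. They were taken by name, through their Ensembl identifiers, from a table of 55487 genes measured by RNA-seq in skeletal muscle, and all 9 were in the table. The libraries came from 8 male C57BL/6J mice aged 10 weeks. The hindlimbs of all 8 were held in casts for 8 days, a disuse model that makes the muscle waste, and all 8 received K14Q MOTS-c by intraperitoneal injection, 2 injections a day, to a daily dose of 15 mg/kg. MOTS-c is a microprotein encoded in mitochondrial DNA, and K14Q is a naturally occurring variant of it that carries glutamine in place of lysine. The study examined whether this variant differs from the wild-type peptide in immobilized muscle. Libraries of mice given the wild-type peptide or a control were not analysed here, so all 8 mice are 1 condition, no effect of the peptide or of immobilization was measured, and the results are levels and their spread between mice.

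Polyamines are small, positively charged molecules that bind nucleic acids and are needed for growth and translation. Ornithine decarboxylase forms putrescine, S-adenosylmethionine decarboxylase supplies the aminopropyl groups, and spermidine synthase and spermine synthase add these to make spermidine and then spermine. Spermine oxidase, and an acetyltransferase acting before an acetylpolyamine oxidase, run the pathway backwards. Several of these genes are known to respond to disuse in skeletal muscle.

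The libraries held between 23985356 and 33012497 counts per mouse, and the 10 most abundant genes took between 18.8% of the counts (mouse 3) and 26.2% (mouse 1). The sample labels name vastus lateralis as the tissue, whereas the study's methods name gastrocnemius, and the values below do not separate these. Transcripts of fast muscle were abundant. Myh4, the myosin heavy chain of fast glycolytic fibres, had a mean of 14572 TPM (counts per length of exon, scaled to the same sum in every library) against 42.7 TPM for Myh7, the myosin of slow fibres. Of the 61 marker genes of muscle and of other cell types that a muscle sample can hold, 58 had at least 10 counts in every mouse. Fewer cells of a type and less RNA per cell cannot be told apart in such bulk samples. No library was a copy of another (chi-square per degree of freedom of 16.1 to 119 over the 28 pairs, as for separate animals).

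Amd1 and Amd2 are nearly the same sequence, and this bears on all their values. Both lie on chromosome 10 on the minus strand (GRCm38 and GENCODE M21). Amd1 (ENSMUSG00000075232, chr10:40287458-40302186) has 8 merged exons, and Amd2 (ENSMUSG00000063953, chr10:35708675-35711892) has 1. Over the 3201 bases in which their longest transcripts aligned, 11 bases differed (99.66% identity, 3 gaps). The coding sequences of 1002 bases differed at 1 base, G796C, which gives the base of Amd1, its position counted from 1 at the first coding base, and the base of Amd2. The 120 coding bases that end at this position are shown to make the size of the difference visible, with the differing base in capitals.
Amd1: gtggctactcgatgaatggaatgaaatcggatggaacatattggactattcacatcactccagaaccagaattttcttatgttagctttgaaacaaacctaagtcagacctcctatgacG
Amd2: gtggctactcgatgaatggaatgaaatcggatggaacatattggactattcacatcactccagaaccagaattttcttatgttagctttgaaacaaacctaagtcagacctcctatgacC
In all, 86.1% of the 50-base windows of the Amd1 transcript occurred unchanged in Amd2 transcripts. How the authors' counting treated reads that match several genes is not given in the sources used here. The counts of Amd1 and Amd2 are therefore uncertain as a split, and their sum is given beside them.

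The starts of the pair differ where the transcripts do not. RefSeq promoter windows, which run from 250 bases before a gene's start to 50 bases after it on GRCm38.p6, were matched for 8 of the 9 genes, all but Srm. The longest run shared by the windows of Amd1 and Amd2 was 48 bases, from base 3 to base 50 of the Amd1 transcript and from base 1 to base 48 of the Amd2 transcript, and so it held no base upstream of either start. The Amd1 window was 63.0% G and C and the Amd2 window 40.7%. The 250 bases before the RefSeq start are shown for both and for Smox, which varied with them between mice and whose RefSeq start lies downstream of the gene's outermost annotated start, so that its window falls within the gene, and capitals mark matches on either strand to 4 short motifs, the GC box GGGCGG, the CCAAT box, the TATA box TATAAA and the E-box CACGTG.
Amd1 (chr10:40302189-40302438, minus strand): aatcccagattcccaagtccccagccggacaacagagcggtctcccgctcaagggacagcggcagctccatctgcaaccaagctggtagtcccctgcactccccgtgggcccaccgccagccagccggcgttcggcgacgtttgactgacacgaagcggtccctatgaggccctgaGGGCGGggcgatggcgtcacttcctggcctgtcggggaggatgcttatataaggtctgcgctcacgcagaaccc
Amd2 (chr10:35711892-35712141, minus strand): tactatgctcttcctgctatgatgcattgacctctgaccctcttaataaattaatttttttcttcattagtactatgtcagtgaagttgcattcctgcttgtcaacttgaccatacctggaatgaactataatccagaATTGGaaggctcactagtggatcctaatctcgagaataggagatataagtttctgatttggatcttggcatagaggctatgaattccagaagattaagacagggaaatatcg
Smox (chr2:131491612-131491861, plus strand): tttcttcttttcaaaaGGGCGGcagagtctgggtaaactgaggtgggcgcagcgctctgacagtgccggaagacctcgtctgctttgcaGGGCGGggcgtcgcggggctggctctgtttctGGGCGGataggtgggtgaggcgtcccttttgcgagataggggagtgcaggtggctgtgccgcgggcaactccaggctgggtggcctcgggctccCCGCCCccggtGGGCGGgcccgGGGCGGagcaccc
Smox held 6 GC boxes, Odc1 4, Sat1 2 and Amd1 1, and Paox held 3 in each of its windows. Oaz1 held none. A GC box was present in 35.7% of the 32851 RefSeq promoter windows. Amd2 held a CCAAT box, as did 37.4% of windows, and no GC box in these 300 bases. Sms has 2 RefSeq starts, and the window at the start of the gene as annotated held 1 CACGTG, a motif found in 7.15% of windows, whereas the window at the start within the gene held 4 GC boxes, some of them overlapping. The TGACNNNGC motif was in the windows of Oaz1 and Smox and in 12.4% of all windows. These matches are of letters and do not show binding.

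All 9 genes had at least 10 counts in every mouse, which 27.3% of the genes in the table did. By mean TPM, which corrects for the length of the exons, the order was Odc1 at 149 ± 33.3 TPM, Amd1 at 107 ± 47.5, Oaz1 at 98.3 ± 14.4, Amd2 at 79.1 ± 34.6, Sms at 29.6 ± 7.24, Smox at 25.4 ± 10.7, Sat1 at 11.7 ± 2.99, Srm at 10.3 ± 3.67 and Paox at 2.03 ± 0.479 (SD, n = 8 mice). Neighbours in this order were compared within each mouse on log2(TPM + 1) with an exact two-sided sign-flip permutation test, whose smallest possible p with 8 mice is 0.0078125. Of the 8 pairs of neighbours, 2 differed after Benjamini-Hochberg adjustment. Amd2 was above Sms by 1.29 ± 0.45 on the log2 scale, and Srm was above Paox by 1.84 ± 0.32, each in 8 of 8 mice (adjusted p = 0.03125, exact permutation test). Both comparisons lost their call when mouse 1, 2, 3, 5, 6 or 8 was left out, where the smallest p that 7 mice can give is larger and too few neighbours reached it. They kept it without mouse 4, where Smox above Sat1 also passed, and without mouse 7, where Odc1 above Oaz1 and Amd1 above Amd2 passed as well and Oaz1 came above Amd1.

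The other 6 pairs of neighbours did not pass the adjusted test. Smox was above Sat1 in 7 of 8 mice by 0.98 ± 0.94 on the log2 scale (p = 0.039, adjusted p = 0.104, exact permutation test). Amd1 and Oaz1 were ordered differently by their mean TPM and by their mean log2 value, since the mean difference was -0.01 with an SD of 0.82. The order held with the length of the longest annotated transcript in place of all exons, but Sat1 then had a mean of 21.7 TPM and Smox of 39.1 TPM. With that length the difference of Amd2 over Sms was smaller, at 0.61 ± 0.45 on the log2 scale in 7 of 8 mice, and 4 pairs of neighbours differed, since Odc1 was above Amd1 by 1.07 ± 0.74 and Sat1 above Srm by 0.93 ± 0.34 on the log2 scale as well (adjusted p = 0.03125 for each, exact permutation test). With Amd1 and Amd2 summed, an alternative chosen after seeing the data, the sum was the highest at 186 TPM and did not differ from Odc1 (p = 0.453, exact permutation test). In that ordering Odc1 was above Oaz1 in 8 of 8 mice, and 3 of the 7 neighbouring pairs differed.

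**Figure D1:**
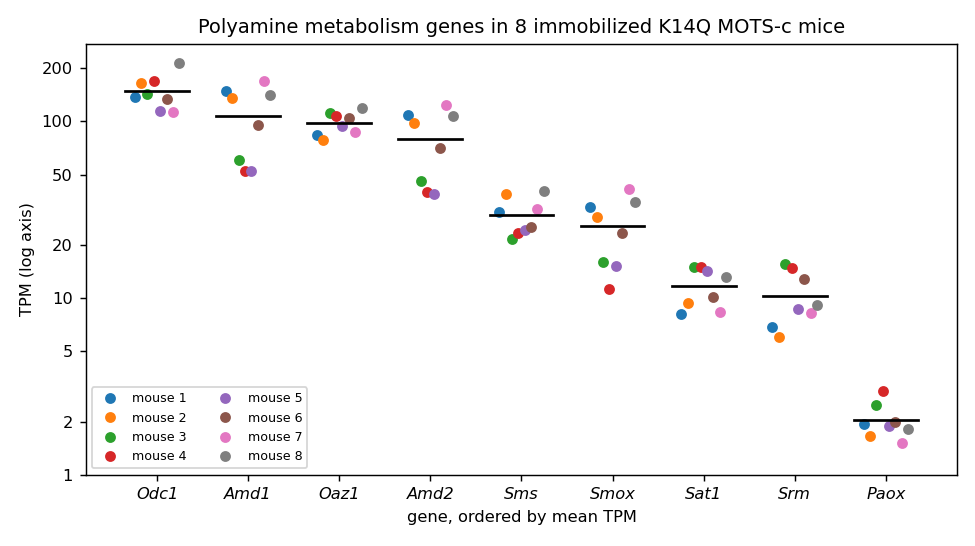
TPM of the 9 genes (log axis) in order of their mean, with 1 coloured point for each of the 8 mice and a black line at the mean. The mean falls from 149 TPM for Odc1 to 2.03 TPM for Paox, and the points of Amd1, Amd2 and Smox spread more widely than those of Oaz1 or Paox.

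By role, the ornithine decarboxylase step with its antizyme took 49.5% of the summed TPM of the 9 genes on average, the Amd1 and Amd2 step 34.9%, aminopropyl transfer 7.90% and back-conversion 7.66%. The first of these shares ran from 34.4% to 63.5% between mice, while the summed TPM of Amd1 and Amd2 ran from 91.2 to 292. The share of aminopropyl transfer stayed between 6.75% and 9.02%, and back-conversion between 6.69% and 8.76%.

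Odc1 (ENSMUSG00000011179, chr12:17544794-17551505), which encodes ornithine decarboxylase, the enzyme that forms putrescine, had normalized counts (counts divided by the authors' size factor of the library) from 6290 in mouse 5 through a median of 7554 to 12716 in mouse 8. Its coefficient of variation (CV, the SD as a percentage of the mean) was 25.5%. Without mouse 8 the CV was 16.2%, so 1 mouse set much of this spread. Oaz1 (ENSMUSG00000035242, chr10:80826656-80829290) encodes antizyme, which binds ornithine decarboxylase and directs it to the proteasome. Its normalized counts ran from 3581 in mouse 2 through a median of 3902 to 5310, again in mouse 8, with a CV of 13.4% (6.68% without mouse 8). The ratio of Odc1 to Oaz1 in normalized counts was 1.62 in mouse 5 and 2.81 in mouse 2, with a mean of 2.03 ± 0.419. Of the 50-base windows of Odc1, 42.2% also occurred in transcripts of other genes, chiefly predicted genes such as Gm7993, and 20.1% of those of Oaz1 did, chiefly in Oaz1-ps, a processed pseudogene that itself had a mean normalized count of 1683.

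Amd1 and Amd2 encode S-adenosylmethionine decarboxylase, which makes the aminopropyl donor for both synthases. The normalized counts of Amd1 in mice 1 to 8 were 9377, 8642, 2961, 2463, 2988, 5294, 11416 and 8733. Those of Amd2 were 6291, 5650, 2031, 1701, 2025, 3580, 7590 and 6026. Mice 3, 4 and 5 were low for both, mice 1, 2, 7 and 8 were high for both, and mouse 6 lay between. The highest mouse had 4.64 times the lowest for Amd1 and 4.46 times for Amd2. The ratio of Amd1 to Amd2 was between 1.45 and 1.53 in every mouse (CV 1.92%), so the pair moved as 1 measurement. Their sum was 10846 ± 5780 normalized counts, from 4164 in mouse 4 to 19006 in mouse 7. Processed pseudogenes of the family also drew counts. Amd-ps4 (mean 1142 normalized counts, 487 to 1887), for example, was lowest in mouse 4 and highest in mouse 7 as well, whereas Amd-ps6 had 0 to 2 counts.

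Spermidine synthase and spermine synthase did not vary in the same way. Srm (ENSMUSG00000006442, chr4:148591503-148594993), the spermidine synthase, had normalized counts of 196, 172, 346, 316, 223, 323, 253 and 255 in mice 1 to 8, with a CV of 24.1%. Mice 1 and 2, high for Amd1, were the lowest for Srm, and mice 3, 4 and 6 were the highest. Sms (ENSMUSG00000071708, chrX:157443855-157492287), the spermine synthase, had 3315, 4200, 1778, 1882, 2347, 2379, 3659 and 4246, with a CV of 33.8%. Sms was higher in mice 1, 2, 7 and 8 than in mice 3, 4, 5 and 6. Of the 50-base windows of Sms, 28.7% also occurred in other transcripts, chiefly Sms-ps (mean 941 normalized counts), against 2.4% for Srm.

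Smox (ENSMUSG00000027333, chr2:131491496-131525922) encodes spermine oxidase, which turns spermine back into spermidine and releases hydrogen peroxide. Its normalized counts in mice 1 to 8 were 2283, 1993, 861, 585, 960, 1429, 3075 and 2379. The highest mouse, mouse 7, had 5.26 times the lowest, mouse 4, and the order of the mice was close to that of Amd1. None of its 2250 windows of 50 bases occurred in a transcript of another gene, so its counts do not share the uncertainty of Amd1 and Amd2. Sat1 (ENSMUSG00000025283, chrX:155213132-155216449), the spermidine/spermine acetyltransferase that starts the other route of back-conversion, ran from 402 in mouse 1 through a median of 509 to 638 in mouse 8 (CV 17.8%). Paox (ENSMUSG00000025464, chr7:140115799-140137224), the acetylpolyamine oxidase of that route, had normalized counts from 141 in mouse 7 to 196 in mouse 4. Its CV of 11.0% was the lowest of the 9 with the authors' size factors, but it was 18.7% against 14.7% for Oaz1 with library totals, and 11.8% against 6.68% for Oaz1 without mouse 8. Without mouse 4 the CV of Paox was 7.04%. The Paox value is the less certain because 142 exonic bases overlap Echs1 on the opposite strand, the use of strand in counting is not given in the sources used here, and 27.3% of its windows occurred in Gm19680.

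**Figure D2:**
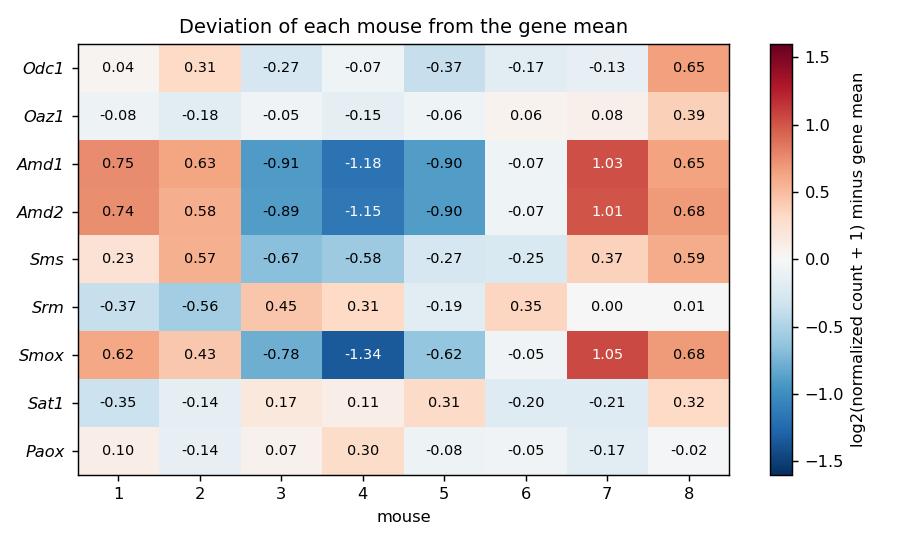
Deviation of each of the 8 mice from the gene's mean, as log2(normalized count + 1) minus the mean over mice (colour scale and printed values), for the 9 genes in order of role. Amd1, Amd2, Sms and Smox are below their means in mice 3, 4, 5 and 6 and above them in mice 1, 2, 7 and 8, while Oaz1, Sat1 and Paox stay closer to 0.

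The spread of 3 of the 9 genes was near the top of the whole table. The CV was 53.6% for Amd1, 52.8% for Amd2 and 51.5% for Smox, which placed them at percentiles 99.1, 99.0 and 98.9 of the 15135 genes with at least 10 counts in every mouse. The median CV was 25.5% over the 9 genes and 15.6% over all 15135. Sms was at percentile 93.0, Odc1 at 82.1, Srm at 79.1, Sat1 at 60.1, Oaz1 at 39.0 and Paox at 24.7. Abundant genes have less counting error, and the dispersion was therefore also set against the trend that edgeR fitted at each gene's abundance. The biological coefficient of variation was 2.67 times the trend for Amd1, 2.65 times for Amd2, 2.60 times for Smox and 1.70 times for Sms. It was 0.871 times the trend for Oaz1 and 0.699 times for Paox. These are descriptions of 8 mice and carry no test.

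**Figure D3:**
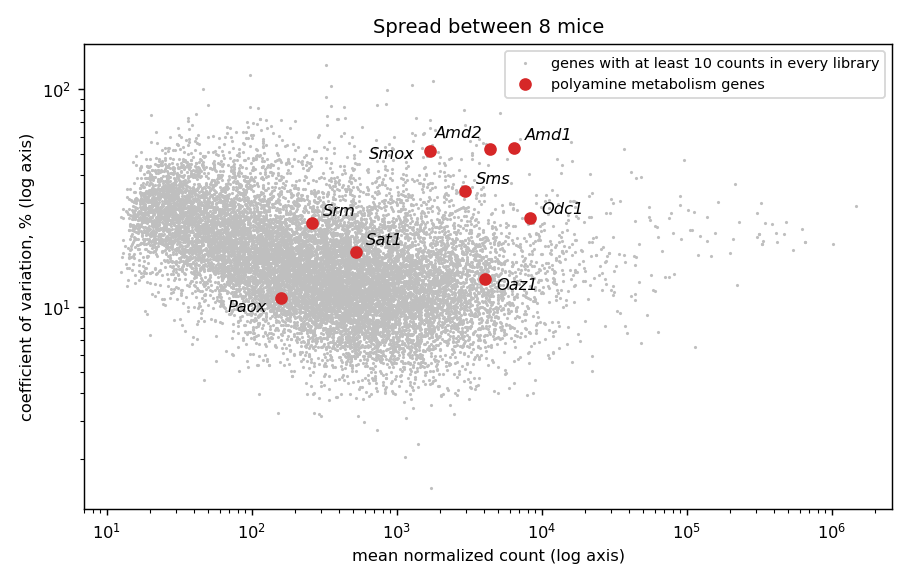
Mean normalized count (log axis) against the coefficient of variation between the 8 mice in percent (log axis) for 15135 genes (grey) and the 9 polyamine genes (red). Amd1, Amd2 and Smox lie near the upper edge at 53.6%, 52.8% and 51.5%, and Paox and Oaz1 lie lower at 11.0% and 13.4%.

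Relations between the members across mice were then tested for all 36 pairs as Pearson's r of log2(normalized count + 1), with an exact two-sided permutation test over all pairings of the 8 mice and Benjamini-Hochberg adjustment over the 36. An absolute r of at least 0.7 was found in 8 of the 36 pairs, which is 22.2%, against 9.62% of all pairs of the 15135 genes. These 36 count Amd1 and Amd2 separately, and without Amd2 it was found in 5 of 28 pairs. An r of at least 0.7 in the positive direction was found in 7 of the 36 and in 4.98% of all gene pairs. The median r was 0.259 over the 36 pairs and -0.001 over all gene pairs. After adjustment 6 pairs passed, all of them positive and all among Amd1, Amd2, Sms and Smox.

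Amd1 and Smox, which serve synthesis and breakdown, were related with r = 0.984 (p = 0.000124, adjusted p = 0.0015, exact permutation test) and Spearman's rho = 0.976 (p = 0.0004, exact permutation test, adjusted p = 0.0071). Leaving out the 2 mice farthest from the median of Amd1 gave r = 0.983, so the relation did not rest on these mice. Mouse 6 lay between the low and the high mice, and neither side holds the 6 mice that a correlation within it would need. Among all 15134 other genes, pseudogenes included, Smox was the gene of rank 7 by its r to Amd1, and 8.7% of genes had an r of at least 0.7 to Amd1. The relation passed in each of 16 alternatives, with r between 0.940 and 0.990. The filter on genes with at least 10 counts in every mouse, counted among these, could not change it, since Amd1 and Smox pass it. With Amd1 and Amd2 summed, Amd1 and Smox were still related at r = 0.984, and this was the only one of 28 pairs to pass (adjusted p = 0.0021, exact permutation test). The ratio of Amd1 to Smox in normalized counts was between 3.11 and 4.34 (CV 10.9%), although each gene varied more than 4-fold.

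Amd1 and Amd2 had r = 0.9997 (p = 4.96e-05, exact permutation test, the smallest that 8 mice can give), and given their shared sequence this is not a relation between separate measurements. Amd2 and Smox had r = 0.985. Sms was related to Amd1 with r = 0.913 (p = 0.0074, adjusted p = 0.044, exact permutation test) and rho = 0.786 (p = 0.028, adjusted p = 0.20, exact permutation test). Its r with Smox was 0.898 (p = 0.0054, adjusted p = 0.044, exact permutation test) and the rho 0.857 (p = 0.011, adjusted p = 0.096, exact permutation test). Without the 2 farthest mice r was 0.822 for Amd1 and Sms and 0.890 for Sms and Smox. The calls of Sms were near the threshold. They were lost when any mouse other than mouse 5 was left out, although r then stayed between 0.888 and 0.925 for Amd1 and Sms and between 0.882 and 0.924 for Sms and Smox (adjusted p at most 0.11, exact permutation test). The highest adjusted p over all alternatives was 0.23 for Amd1 and Sms and 0.44 for Sms and Smox, both with the trend on a muscle score removed as described below.

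Of the other pairs, none passed. Odc1 and Sms had r = 0.746 (p = 0.025, adjusted p = 0.13, exact permutation test) and rho = 0.762 (p = 0.037, exact permutation test), but r was 0.435 without the 2 farthest mice. Srm was opposite in sign to Sms, with r = -0.72 (p = 0.052, adjusted p = 0.24, exact permutation test). Odc1 and Oaz1, an enzyme and its inhibitor, had r = 0.52 but rho = -0.07 (p = 0.19 and 0.88, exact permutation test), and r was -0.14 without the 2 farthest mice, so the positive value rested on these mice. The r of Sat1 with Smox, which act in the parallel routes of back-conversion, was -0.49, and that of Sat1 with Paox, which act in succession, was 0.15.

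**Figure D4:**
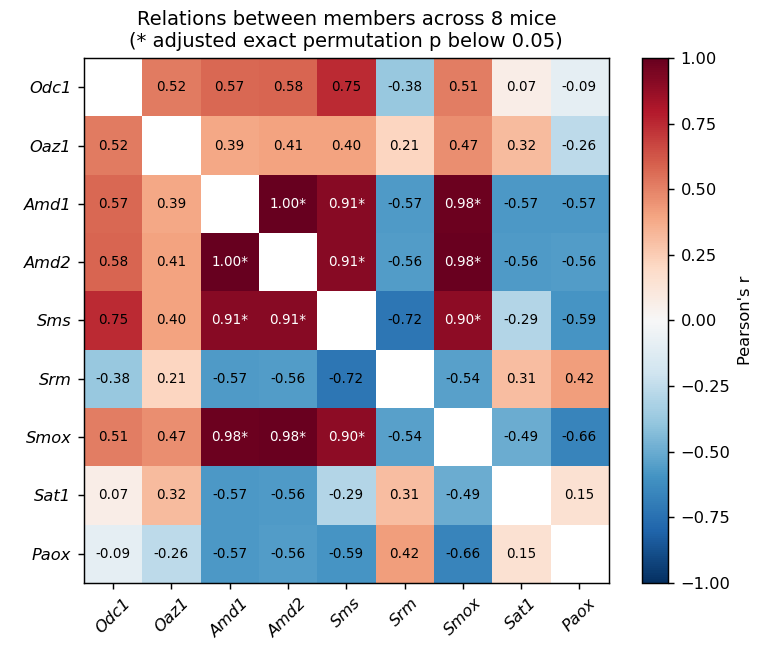
Pearson's r of log2(normalized count + 1) across the 8 mice for the 36 pairs of members (colour scale and printed values), with an asterisk where the adjusted exact permutation p was below 0.05. The 6 asterisks join Amd1, Amd2, Sms and Smox.

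The makeup of the libraries was set beside these genes, and none of the relations in this paragraph with a share or a score passed the adjusted test. The share of counts taken by the 10 most abundant genes had r = 0.889 with Amd1 (p = 0.0054, adjusted p = 0.076 over 27 relations, exact permutation test), 0.860 with Smox, 0.823 with Sms and -0.77 with Srm. A score of 7 skeletal muscle genes had r = 0.837 with Amd1, 0.854 with Smox and 0.853 with Sms (adjusted p = 0.0993 for each over 90 relations, exact permutation test). With each gene's linear trend on that share removed, an alternative chosen after seeing the data, Amd1 and Smox kept r = 0.940 (adjusted p = 0.015, exact permutation test), whereas Amd1 and Sms had r = 0.698 (adjusted p = 0.18, exact permutation test). With the trend on the muscle score removed in the same way, Amd1 and Smox had r = 0.947 (adjusted p = 0.00089, exact permutation test) and Amd1 and Sms r = 0.698 (adjusted p = 0.23, exact permutation test). The part of the library makeup in the spread of these genes was otherwise not tested.

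**Figure D5:**
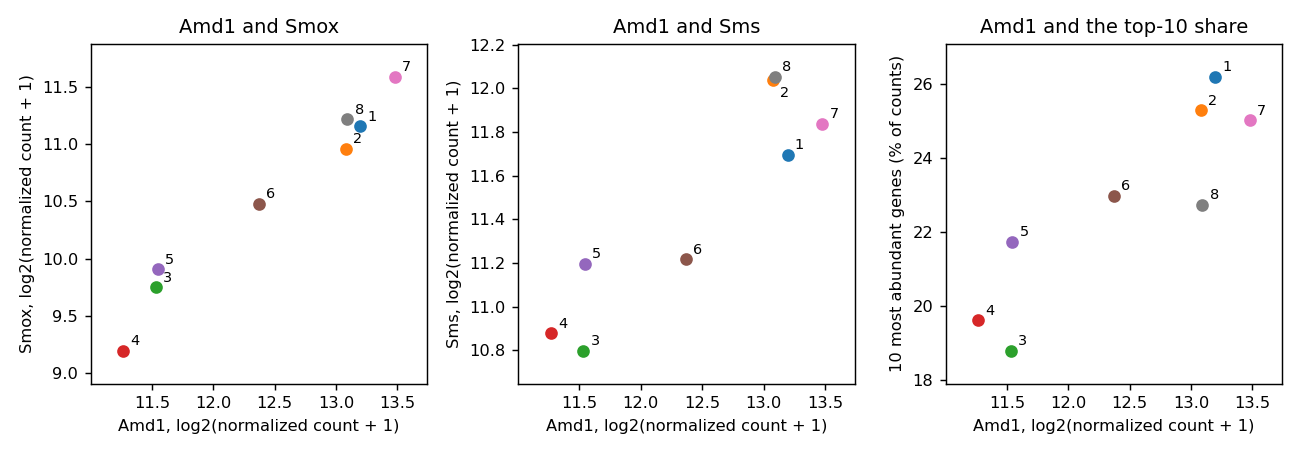
Each point is 1 of the 8 mice, numbered. Amd1 as log2(normalized count + 1) is plotted against Smox (left) and Sms (middle) on the same scale and against the percentage of counts taken by the 10 most abundant genes (right). The points rise together in all 3 panels, with r = 0.984, 0.913 and 0.889. For Amd1, Smox and Sms mouse 6 lies between mice 3, 4 and 5 and the other 4. In the percentage of the right panel mouse 6 (23.0%) lies above mouse 8 (22.7%).

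Markers of other cell types were set beside the members in the same way, as 10 lists against 9 genes. None of the 90 relations passed, and 9 had an unadjusted p below 0.05 (exact permutation test). Oaz1 was opposite in sign to the fibroblast list (8 of 8 genes detected, summed normalized counts from 10294 in mouse 8 to 19186 in mouse 2) with r = -0.86 and rho = -0.95 (p = 0.0019 and 0.0011, adjusted p = 0.0993 and 0.103, exact permutation test). It had r = -0.82 with the tendon list, whose sum was 905 in mouse 8 and 6158 in mouse 1, r = -0.79 with the macrophage list and r = -0.73 with the adipocyte list. With the endothelium list r was -0.67 and rho -0.76 (p = 0.056 and 0.037, adjusted p = 0.48 and 0.41, exact permutation test). Without the 2 mice farthest from the median of Oaz1, r was -0.74 with the endothelium list, -0.70 with the fibroblast list and -0.62 with the macrophage list. It was -0.41 with the tendon list and -0.28 with the adipocyte list. Oaz1 also had r = 0.895 and rho = 0.690 with the first principal component of the 15135 genes, which held 28.5% of their variance and on which mice 7 and 8 were the highest. Amd1, Amd2, Sms and Smox had r of 0.603 to 0.693 and rho of 0.738 to 0.833 with it, and these values carry no test. Mouse 8, highest for Oaz1 and Odc1, had the lowest sums of fibroblast, tendon, endothelium and blood markers. The tendon marker Scx, however, was highest in mouse 8, at 86.5 normalized counts. The part of other cells in the level of Oaz1 was not tested further.

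The members were also compared with 10 genes known to regulate them or to respond to disuse, in 18 relations. None passed, and 2 had an unadjusted p below 0.05 by the exact permutation test. Amd1 had r = 0.819 with Mat2a, which encodes the form outside the liver of the enzyme that makes S-adenosylmethionine, the substrate of S-adenosylmethionine decarboxylase (p = 0.021, adjusted p = 0.22, rho = 0.833, exact permutation test). Without mouse 1 it had r = 0.967 and passed (adjusted p = 0.014, exact permutation test), whereas without the 2 mice farthest from the median of Amd1 r was 0.621. Sat1 had r = 0.823 with Trim63, the ubiquitin ligase MuRF1 of muscle wasting (p = 0.024, adjusted p = 0.22, rho = 0.810, exact permutation test). Smox, by contrast, had r = -0.61 with Trim63, -0.46 with Fbxo32, the ubiquitin ligase atrogin-1, and -0.59 with Cdkn1a, the cell cycle inhibitor p21, none of which passed (adjusted p of 0.40 to 0.54, exact permutation test). These values moved to between -0.24 and 0.08 without the 2 mice farthest from the median of Smox, and the values with Trim63 and Cdkn1a ran from -0.39 and -0.34 without mouse 4 to -0.87 and -0.78 without mouse 8, still without passing (adjusted p = 0.17 without mouse 8, exact permutation test). Odc1 had r = 0.162 with Myc, which encodes a transcription factor known to activate it.

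The genes most like each member across the 8 mice were listed by r among the 9724 protein-coding genes that reached 10 counts in every mouse and a mean normalized count of 100. For Amd1 they were Amd2 and Smox, followed by the homeobox gene Hoxd8 (r = 0.982). For Smox, Lcmt1, which encodes a methyltransferase that uses S-adenosylmethionine, came ahead of Amd2 and Amd1 (r = 0.989). For Sms they were Me1, the malic enzyme that supplies NADPH (r = 0.991), Tpm1, a tropomyosin of the thin filament (r = 0.986), and Atl2 (r = 0.985). Oaz1 was most like Ndufb7, Cisd3 and Uqcrh (r = 0.985, 0.978 and 0.975), of which Ndufb7 and Uqcrh encode subunits of the respiratory chain. Odc1 was most like Zc3h11a, which the annotation holds as 2 entries (r = 0.964 and 0.952), and Ogt, the O-GlcNAc transferase (r = 0.960). Srm was most like Sugp1, 2210016F16Rik and Med28 (r from 0.964 to 0.991), Sat1 most like Vamp8, Tpra1 and Sys1 (r from 0.950 to 0.968), and Paox most like Med22, Foxo3 and Tnpo2 (r from 0.956 to 0.972). These are the top ranks of many genes in 8 mice and carry no test.

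The rest of the pathway was read from 6 lists of 37 genes, of which 27 had at least 10 counts in every mouse. Among the antizymes and their inhibitors 3 of 4 were detected, with Oaz2 at 48.8 TPM and the testis antizyme Oaz3 at 0 to 4 counts. The antizyme inhibitors Azin1 and Azin2 were at 6.43 and 0.658 TPM. Of the 6 genes of arginine and ornithine supply 3 were detected, and Agmat (1 to 9 counts) was among those that were not. Oat, the ornithine aminotransferase, led this list at 79.8 TPM. Gamt, which forms creatine, had a mean of 34.6 normalized counts and a CV of 46.9%.

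The methionine cycle and salvage genes, which make S-adenosylmethionine and recycle the by-product of polyamine synthesis, were detected in 8 of 9 cases. Adi1, an enzyme of the salvage route, led at 51.1 TPM, Mat2a was at 43.9 TPM, and Mat1a, the liver form, was at 0 counts in every mouse, and a count of 0 allows up to 3 counts per library at 95% confidence. All 4 genes of hypusine formation, the modification of a translation factor with a part of spermidine, were detected, led by that factor, Eif5a, at 223 TPM, above the mean of every polyamine enzyme in TPM. Of the other genes of oxidation and acetylation 2 of 3 were detected, with Hdac10, a polyamine deacetylase, at 3.55 TPM and the diamine oxidase Aoc1 at 0 to 3 counts. Of 11 transport genes 7 were detected. Atp13a3, a polyamine transporter, led at 23.5 TPM, and Atp13a4, Slc22a2 and Slc12a8 were among those not detected in every mouse, with at most 5 counts. Slc7a1, the cationic amino acid transporter that carries arginine and ornithine, had a CV of 47.3%. Slc7a2, of the same family, had normalized counts from 1209 in mouse 7 to 4034 in mouse 3.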

How the data were processed

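RNA-seq was analysed in muscle of 8 male mice, all immobilized and given K14Q MOTS-c. Per the labels and the study's methods the authors checked and trimmed the reads (FastQC, fastp), mapped them to GRCm38 with STAR, counted them per gene with summarizeOverlaps and normalized with DESeq2. The annotation release, strand use and handling of reads that match several genes are not given in the sources used here. The deposited values are a signal that the authors made by dividing the counts of a library by 1 size factor (0.906 to 1.20). Whole reads were recovered for 100% of the values within 0.01 of a read. The design had assumed raw counts. As the table holds 1 condition, no count test was run, and edgeR was used on the recovered counts only for dispersions and TMM factors.

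Of 55487 identifiers, 55227 were matched to GENCODE M21, which gave symbols, positions and lengths. TPM used the union of a gene's exons. Levels were compared on log2(TPM + 1) and relations on log2(normalized count + 1), with a pseudocount of 1. Tests were exact permutation tests, two-sided, with Benjamini-Hochberg adjustment and a threshold of 0.05. Where a trend on the top-10 share or the muscle score was removed, the permutation p is approximate. Spread is the SD over mice. A gene was detected with at least 10 counts in every library. Depth was 23985356 to 33012497 counts per library. The counts are reads without molecular identifiers, and intervals and floors cover counting error only. A marker score is the mean of z-scores over the list.

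The members, gene lists, relations and tests were chosen with earlier results of these data known, and nothing here is independent support for them. Named were all 9 members, all genes of the relations, the gene of highest mean TPM and the undetected genes of each pathway list, and the 3 genes most like each member. A few results that this rule would name are not reported here. Other genes (Azin1, Azin2, Gamt, Slc7a1, Slc7a2, Mat2a as a level, and pseudogenes or other genes that share sequence with members) were named after their values were seen. The alternatives were TMM factors, library totals, Spearman correlation, a pseudocount of 5, transcript length, removal of trends on GC content and length, the detection rule, the median over mice and leaving out each mouse. On simulated data with 200 planted relations the relation test gave the planted sign in 100%. It called 5.05% of unrelated genes at p below 0.05, a share that an exact permutation test keeps near this threshold by construction. Its power for pairs of measured genes was not tested. Software was edgeR 4.0.16 in R 4.3.3 and scipy 1.17.1, numpy 2.4.6, pandas 2.3.3 and matplotlib 3.10.9 in Python 3.11.15.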

Additional observations from a re-analysis of the deposited data

Results flagged for a closer look

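In 3 of the 53 genes checked, 1 mouse stood apart from the other 7 by a gap to its nearest neighbour above the 95% limit of Dixon's test, as a share of the whole range, where chance gives about 2.65 of 53, and 6.0% of all genes with at least 10 counts in every mouse did the same. Oaz1 was highest in mouse 8, with a gap of 0.595 of the range. Atp13a3, a polyamine transporter gene, was highest in mouse 4, with a gap of 0.558. Slc7a1, a cationic amino acid transporter gene, was highest in mouse 5, with a gap of 0.638. These values were kept in all results.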

How the results depend on the processing

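The relation of Amd1 or Amd2 with Smox passed under every alternative run. The 15 relations recomputed, among them the 6 pairs that passed, kept their sign in 16 alternatives for pairs of members. For partners and marker lists, for which the 2 trend removals were not run, they kept it in 14 alternatives. The gene filter, counted in these, could not change the pairs or the partner relations, since all their genes pass it. The relation of Odc1 and Oaz1 was not among the 15, and its sign differed between Pearson's r and Spearman's rho. The number of related pairs among the 9 genes was 6, and it was 3 with library totals in place of the size factors and 3 with Spearman correlation. It was between 3 and 6 when each mouse was left out in turn, and where it was 3 the pairs that remained were those among Amd1, Amd2 and Smox. With alternatives chosen after seeing the data it was 1 with Amd1 and Amd2 summed, 3 with the trend on the top-10 share removed and 3 with the trend on the skeletal muscle score removed. TMM factors, a pseudocount of 5 and correction for GC content and length each gave 6. The gene filter also gave 6, but it could not change this number, since all 9 genes pass it. The number of neighbours in the level order that differed was 2, and 4 with the longest annotated transcript as length. It was between 0 and 4 with 1 mouse left out, with gains without mouse 4 or 7 as given above. The number of member and partner relations that passed was 0, and between 0 and 1 with 1 mouse left out. That of the marker list relations was 0 in each alternative. All 9 genes were detected under each detection rule, but the alternative rules are looser than the main one and could not lower this number. Of 189 mean normalized counts and coefficients of variation recomputed, 4 moved, all of them coefficients of variation. They are those of Odc1 and Oaz1 without mouse 8 and of Paox with library totals and without mouse 4, as given above. The cause of these shifts was not tested. No paired analysis was possible because the table holds 1 condition. With 8 mice, only strong relations can pass the adjustment, and counting error is relatively large for Azin2 and Gamt, which are near the count minimum.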
